A study of Mus musculus with 6 samples.

Results

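The genes described here are the protein-coding genes of mouse chromosome 4, taken as those whose first exon in the count files lies on chromosome 4, in the order of their start positions. There are 1327 of them among 21983 protein-coding genes, and 646 were measured, meaning a mean over the 6 libraries above 3 on the log2 CPM scale (CPM, counts per 1000000 counts; log2 values use a prior count of 2). The chromosome was chosen by its measured values, a lower median of these genes in fx/fx tumors, so every difference between the genotypes given below for its genes is a description of the values that chose them and carries no test.

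The series holds RNA-seq of 6 tumors labelled NIC+, of which 3 have the genotype CdGAP wt/wt (wt1, wt2 and wt3) and 3 CdGAP fx/fx (fx1, fx2 and fx3). In NIC mice 1 transgene, under the promoter of the mouse mammary tumor virus (MMTV), gives mammary epithelium both an activated Neu (ErbB2) receptor and Cre recombinase, so all 6 tumors share the oncogene and Cre. CdGAP, encoded by Arhgap31, is a GTPase-activating protein for Cdc42 and Rac1, and both of its alleles can be recombined by Cre in fx/fx mice, in the cells that express the transgene and not in the stroma. The labels give no age, strain or tumor stage, and whether each library is from its own animal is not stated, so any p-value reflects only how these 6 samples vary, which may be technical. The series contrasts the 2 genotypes.

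Mouse chromosome 4 carries genes of very different duties side by side: the cell cycle inhibitors of the Cdkn2a and Cdkn2b locus, the interferon cluster, and, in its distal part, a long stretch that corresponds to the short arm of human chromosome 1, a region often lost in human tumors. A chromosome has no shared promoter or pathway, and neighbouring genes are usually transcribed independently of one another. The counts measure RNA only: the number of copies of chromosome 4 was not measured in the files used here.

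Promoter windows are shown for genes at both ends of the range of fold changes, to set side by side start sites on 1 chromosome whose RNA differed in opposite directions. They belong to the 3 genes with the lowest and the 3 with the highest fold change among those whose genotypes did not overlap and whose RefSeq start lay within 200 bases of the gene's start in the count files. Each window runs from 250 bases before to 50 bases after the start, 5′ to 3′ on the gene's strand, from RefSeq on GRCm38.p6. Capitals mark matches on either strand to 3 core promoter motifs: the GC box, with the letters GGGCGG, the TATA box, searched here as TATAAA, and the motif called CCAAT box after its letters. Rap1gap (chr4:137664476-137664775, plus strand), Padi2 (chr4:140906110-140906409, plus strand) and Epha2 (chr4:141300971-141301270, plus strand) were low in fx/fx, and Tnc (chr4:64046966-64047265, minus strand), Col15a1 (chr4:47207762-47208061, plus strand) and Col9a2 (chr4:121039316-121039615, plus strand) were high.
Rap1gap: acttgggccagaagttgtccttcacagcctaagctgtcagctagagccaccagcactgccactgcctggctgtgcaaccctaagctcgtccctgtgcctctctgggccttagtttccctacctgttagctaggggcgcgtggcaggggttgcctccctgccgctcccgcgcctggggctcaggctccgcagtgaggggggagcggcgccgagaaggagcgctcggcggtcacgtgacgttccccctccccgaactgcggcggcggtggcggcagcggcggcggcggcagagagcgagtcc
Padi2: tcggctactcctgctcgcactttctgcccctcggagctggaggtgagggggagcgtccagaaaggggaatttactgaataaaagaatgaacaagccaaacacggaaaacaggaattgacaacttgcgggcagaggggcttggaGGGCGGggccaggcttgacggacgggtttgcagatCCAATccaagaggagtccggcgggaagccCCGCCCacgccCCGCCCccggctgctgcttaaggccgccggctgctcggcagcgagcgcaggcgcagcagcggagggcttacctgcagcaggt
Epha2: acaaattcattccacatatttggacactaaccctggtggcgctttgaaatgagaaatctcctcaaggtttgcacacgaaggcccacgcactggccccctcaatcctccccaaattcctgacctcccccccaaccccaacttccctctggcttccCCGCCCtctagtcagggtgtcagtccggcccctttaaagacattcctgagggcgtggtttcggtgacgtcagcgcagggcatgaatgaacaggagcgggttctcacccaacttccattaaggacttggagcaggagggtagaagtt
Tnc: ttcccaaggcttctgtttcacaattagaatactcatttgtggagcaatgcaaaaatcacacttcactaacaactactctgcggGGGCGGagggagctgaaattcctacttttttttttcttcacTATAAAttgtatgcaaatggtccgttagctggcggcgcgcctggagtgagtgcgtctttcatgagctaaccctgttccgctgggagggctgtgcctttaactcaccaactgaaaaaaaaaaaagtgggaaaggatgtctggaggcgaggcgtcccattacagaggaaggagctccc
Col15a1: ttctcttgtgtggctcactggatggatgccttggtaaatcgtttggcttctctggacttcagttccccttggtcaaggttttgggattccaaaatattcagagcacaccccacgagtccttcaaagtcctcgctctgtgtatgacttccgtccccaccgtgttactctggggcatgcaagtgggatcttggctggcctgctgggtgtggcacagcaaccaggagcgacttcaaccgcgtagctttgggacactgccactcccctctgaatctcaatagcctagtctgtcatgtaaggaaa
Col9a2: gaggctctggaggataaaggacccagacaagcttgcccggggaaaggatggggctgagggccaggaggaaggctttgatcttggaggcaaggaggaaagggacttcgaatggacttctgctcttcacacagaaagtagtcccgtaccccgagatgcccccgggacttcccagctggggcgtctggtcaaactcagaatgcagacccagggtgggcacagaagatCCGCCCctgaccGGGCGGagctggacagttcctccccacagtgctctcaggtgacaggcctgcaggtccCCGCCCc
The windows of Padi2 and Col9a2 each held 3 GC boxes, while those of Rap1gap and Col15a1 held none of the 3 motifs. The window of Rap1gap held 25 CpG dinucleotides and that of Col15a1 held 8. Of the 646 measured genes 523 had a RefSeq window on chromosome 4, and 70.0% of these held a GC box, 7.46% a TATA box and 40.9% a CCAAT box. Over all 32851 windows the shares were 35.7%, 13.6% and 37.4%. That larger set was not limited to measured genes, and its median was 7 CpG dinucleotides, as against 22 for the 523 genes. Shares for measured genes of other chromosomes were not computed, so whether the difference is particular to chromosome 4 was not tested. The motif matches describe letters and are not evidence of a bound factor.

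Total counts ran from 36732137 (fx2) to 53606276 (fx1), so that 3 counts, the limit a count of 0 allows, are at most 0.0817 CPM (counting error only). Arhgap31 itself, on chromosome 16, measured 664, 432 and 550 CPM in wt/wt and 155, 44.1 and 115 CPM in fx/fx, which matches the labels; the counts cover the whole gene, and the labels do not name the recombined part. Markers of other cells, taken from other chromosomes, differed too. The 10 fibroblast markers summed to between 349 and 582 CPM in wt/wt and between 891 and 1659 CPM in fx/fx, and 9 of 10 were higher in fx/fx. On average over the list, the 8 adipocyte markers stood at 1.92, 3.70 and 2.36 (log2, relative to the wt/wt mean) in fx1, fx2 and fx3 and at 1.58, -0.95 and -0.63 in wt1, wt2 and wt3, so that wt1 lay near fx1. The 10 endothelial markers were at 1.07, 0.85 and -0.01 in fx1, fx2 and fx3. The 7 mast cell markers were at 1.54, 1.57 and 1.14, but their summed level went the other way, between 621 and 1381 CPM in wt/wt and between 562 and 736 CPM in fx/fx. The 9 macrophage markers were at 0.31, 0.56 and -0.54, the 9 lymphocyte markers at 0.26, 0.54 and -0.45, and the 9 tumor epithelium markers off chromosome 4 at 0.51, 0.21 and 0.57. Retn, Cd79a and Ms4a2 were among the markers at 0 in at least 1 library. In bulk tumor RNA, fewer cells of a type and less RNA per cell cannot be told apart, and the part that a changed cell mix has in the values below was not tested.

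Chromosome 4 took a smaller part of the RNA in every fx/fx tumor. Its protein-coding genes received 5.998%, 6.04% and 6.02% of all counts in wt1, wt2 and wt3, but 3.64%, 5.29% and 3.23% in fx1, fx2 and fx3. The genotypes did not overlap, and fx2 lay much nearer to wt/wt than fx1 and fx3 did. Leaving out the 10 most abundant genes of the chromosome gave 5.20%, 5.24% and 5.18% in wt/wt and 3.22%, 4.70% and 2.85% in fx/fx, so the lower share was also there without the most abundant transcripts.

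The typical gene showed the same order. For each library the median over the 646 measured genes was taken of log2 CPM minus the wt/wt mean. It was 0.02, -0.07 and 0.05 in wt1, wt2 and wt3 and -0.70, -0.12 and -0.82 in fx1, fx2 and fx3. On the linear scale these fx/fx medians are 61.6%, 92.0% and 56.5% of the wt/wt mean. The median of the mean difference, fx/fx minus wt/wt, was -0.57.

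Set beside the other chromosomes, chromosome 4 was the lowest in fx1 and fx3 but not in fx2. The next lowest median was that of chromosome 10 in fx1 (-0.61) and that of chromosome 11 in fx3 (-0.14). In fx2 chromosome 14 was lower, at -0.16. Within wt/wt no chromosome went below -0.32, which was chromosome 1 in wt2. Medians above 0 also occurred, up to 0.36 for chromosome 1 in fx1, 0.43 for chromosome 2 in fx2 and 0.53 for chromosome 1 in fx3.

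**Figure D1:**
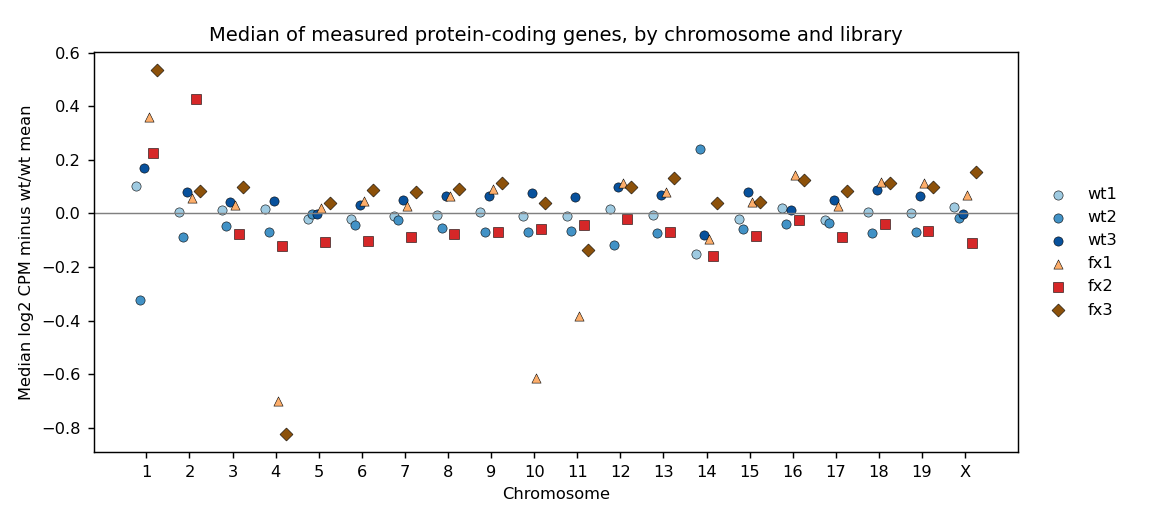
Median over measured protein-coding genes of log2 CPM minus the wt/wt mean (y axis) for each chromosome (x axis) and library (points). Chromosome 4 lies at -0.70 in fx1 and -0.82 in fx3 and at -0.12 in fx2, while its wt/wt points lie between -0.07 and 0.05.

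Lower values in fx/fx were found for most measured genes of the chromosome. On average 597 of 646 were lower in fx/fx and 49 were higher, where 50.8% and 49.2% of all measured genes were. In 252 genes (39.0%) all 3 fx/fx values were below all 3 wt/wt values, called without overlap here, and the same held for 9.75% of all 9990 measured protein-coding genes. In the opposite direction 10 genes, 1.55%, were higher in every fx/fx library, beside 8.56% over all chromosomes. Library by library, 531 of the 646 genes in fx1, 283 in fx2 and 570 in fx3 lay below all 3 wt/wt libraries, beside 35.7%, 31.8% and 26% of all measured genes. Another 345 genes were lower on average but with overlap, with fx1, fx2 and fx3 medians of -0.62, 0.03 and -0.79. Without fx2 the count of genes lower without overlap was 499 of 642. With fewer libraries this condition is easier to meet, and the share over all genes without fx2 was not computed. The count is therefore not comparable to the 9.75%.

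Gene by gene, the number of differences that passed depended on the test. With edgeR's quasi-likelihood test and Benjamini-Hochberg adjustment over all 16752 genes, 0 of the 866 chromosome 4 genes that entered passed an adjusted p of 0.05, where percent called over all genes was 0 as well. Arhgap31, at a log2 fold change of -2.38 (SE 0.45), did not pass edgeR's threshold either (adjusted p 0.153). At an unadjusted p under 0.05 edgeR had 268 lower and 37 higher genes on the chromosome (6.04% and 8.18% over all genes). limma-voom called 0, with 311 lower and 37 higher at an unadjusted p under 0.05 (6.78% and 7.49% over all genes). DESeq2 called 102 of 902 (4.63% over all genes), of which 83 were lower and 19 higher, where it called 1.73% of all genes lower and 2.9% higher. edgeR without the filter on low counts called 8, all lower (0.0508% over all genes), among them Alpl, Arhgef19, Klhdc7a, Padi2, Pink1, Rap1gap and Tinagl1. Of these, Pink1 and Tinagl1 are named because their calls were seen. Among the 646 measured genes DESeq2 had 76 calls, 70 lower (1.4% over all measured genes) and 6 higher (2.25%), the latter being Col15a1, Col27a1, Tnc, Pik3r3, Col9a2 and Megf6. With 1 library left out 29 (wt1), 47 (wt2), 36 (wt3), 53 (fx1), 62 (fx2) and 44 (fx3) of the 76 kept their call. Since the rule used this contrast, these counts describe the chromosome and test nothing about it.

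Along the chromosome the profile differed between the fx/fx tumors. In fx1 the medians of the 16 bins of 10 Mb ran from -0.76 to -0.59 and in fx3 from -0.96 to -0.61, so both were low from one end to the other, starting with Tmem68 (chr4:3549041-3574853; -0.84 and -0.70) and ending with Noc2l (chr4:156236010-156247616; -1.03 and -1.08). In fx2 most bins lay near 0, up to 0.15, and 1 bin stood apart: the 57 genes between 140 and 150 Mb had a median of -0.90. The largest step between neighbouring bins was 0.70 in fx2, at 150 Mb, as against 0.14 in fx1, 0.25 in fx3 and at most 0.13 in wt/wt. For fx/fx minus wt/wt as a whole, the same bin from 140 to 150 Mb was the lowest, at -0.79. Of its 57 genes 44 were lower without overlap, beside 39.0% on the chromosome and 9.75% of all measured genes. Being lower without overlap requires a low fx2, which sets this bin apart, so the count is no test. Without fx2 the lowest bin was instead the first, from 0 to 10 Mb (-0.86).

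**Figure D2:**
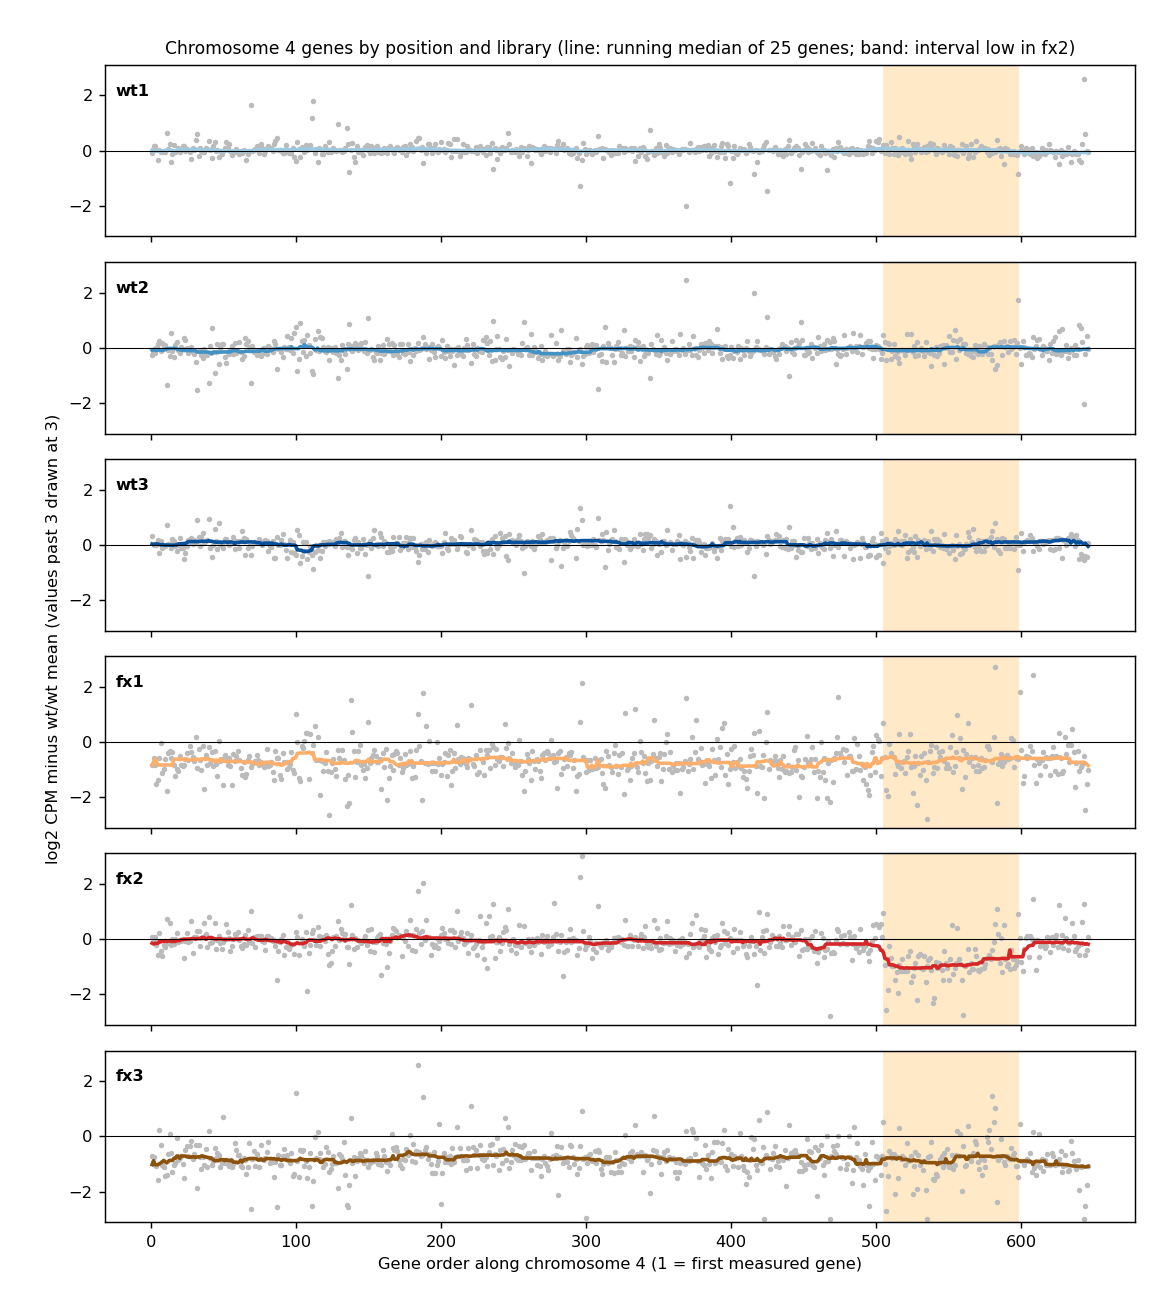
Log2 CPM minus the wt/wt mean (y axis, 1 panel per library) of the 646 measured genes in their order along chromosome 4 (x axis), with the running median of 25 genes as a line and the interval that is low in fx2 as a band. The line stays near 0 in wt/wt, is low throughout in fx1 and fx3, and drops only within the band in fx2.

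The single interval that best described each library, found by least absolute deviations with at least 20 genes inside, was clear in fx2 alone. It ran there from Usp48 to Plekhg5 (chr4:137593755-152115400) with 92 measured genes, a median of -0.93 inside and -0.07 outside, and it took away 18.1% of the absolute deviation. In the other 5 libraries the best interval took away between 0.91% and 1.91%. A least squares fit on values limited to 1.5 on either side of 0, chosen after seeing the data, gave the same first gene, Usp48, but ended at Tmem201 (149738044) with 74 genes. The interval was read from these values, so the contrast of inside and outside in fx2 is no test.

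Near the proximal edge single genes varied. Hspg2 (chr4:137468769-137570630), the last measured gene before it, was at 0.94 in fx2 and Cdc42, before that, at 0.09. Usp48, a ubiquitin-specific protease, was at -0.93, followed by Rap1gap at -2.56, Alpl at -1.83 and Ece1 at -0.26. In fx1 and fx3 Cdc42 was already low, at -0.58 and -0.72. Hspg2 was high there too (0.70 and 0.53) and Usp48 low (-0.54 and -0.996), so these neighbours do not set fx2 apart. Rap1gap (-1.72 and -2.72) and Alpl (-1.94 and -1.42) were also low in fx1 and fx3.

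The distal edge was uneven. Zbtb48 (-1.06), Nol9 (-0.94) and Plekhg5 (-0.79) were low in fx2, Espn (0.92) and Acot7 (0.04) after them were not, and Icmt (-0.83) and Rpl22 (-1.15) were low again. Within the interval Car6 (1.11 in fx2), a secreted carbonic anhydrase, H6pd (0.55), Camta1 (0.50), Eno1 (0.19) and Errfi1 (0.05) were not low. Agtrap, named after its values were seen, was low mainly in fx2: 56.6, 65.5 and 57.03 CPM in wt/wt and 49.4, 8.94 and 46.6 CPM in fx/fx.

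Inside the interval all 3 fx/fx tumors were low, fx1 at a median of -0.66, fx2 at -0.93 and fx3 at -0.81. Of its 92 genes 86 were lower on average, 68 (73.9%) were lower without overlap, none was higher without overlap, and DESeq2 called 45 lower. Over all measured genes 9.75% were lower without overlap, 8.56% were higher without overlap, and DESeq2 called 1.4% lower. The interval was chosen for low values in fx2, which favour such counts, so the counts inside it are descriptions and no test. Outside it the medians over 554 genes were -0.71, -0.07 and -0.82, with 184 lower and 10 higher without overlap and 25 DESeq2 calls lower and 6 higher. The interval took 1.35%, 1.24% and 1.33% of counts in wt1, wt2 and wt3, and 0.755%, 0.765% and 0.640% in fx1, fx2 and fx3. The measured genes outside it took 4.58%, 4.72% and 4.61% in wt/wt and 2.82%, 4.45% and 2.54% in fx/fx.

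**Figure D3:**
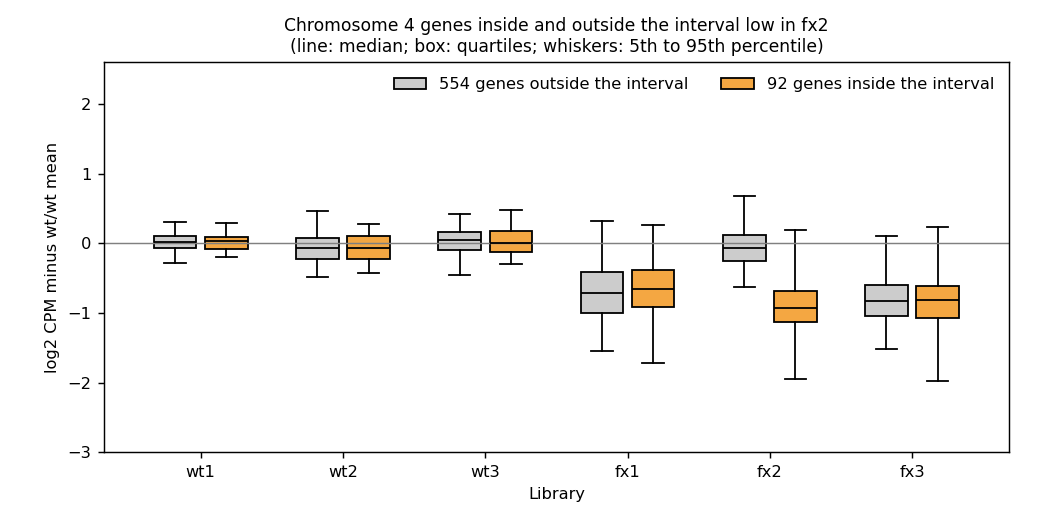
Log2 CPM minus the wt/wt mean (y axis) of the 554 genes outside and the 92 genes inside the interval that is low in fx2, by library (x axis); lines are medians, boxes quartiles and whiskers the 5th to 95th percentile. Inside and outside are alike in fx1 (-0.66 and -0.71) and fx3 (-0.81 and -0.82) and apart in fx2 (-0.93 and -0.07).

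Of the 10 genes with the lowest fold changes among those without overlap, 7 lie in the interval. So do 68 of all 252 genes lower without overlap and 92 of the 646 measured genes. Being lower without overlap requires a low fx2, for which the interval was chosen, so these counts are no test. Padi2 (chr4:140906344-140952586), a peptidylarginine deiminase that turns arginine into citrulline in proteins, measured 466, 451 and 287 CPM in wt/wt and 81.2, 86.1 and 104 CPM in fx/fx. All 3 fx/fx libraries were low and close to one another, and the mean went from 401 ± 99.2 CPM in wt/wt to 90.4 ± 11.99 CPM in fx/fx (SD, n = 3), an edgeR log2 fold change of -2.15 (SE 0.24). Rap1gap (chr4:137664726-137729861), which switches off the small GTPase Rap, measured 873, 561 and 873 CPM in wt/wt and 228, 128 and 114 CPM in fx/fx. The mean went from 769 ± 180.2 CPM in wt/wt to 157 ± 62.2 CPM in fx/fx (SD, n = 3), a log2 fold change of -2.29 (SE 0.34), and the genotypes were far apart.

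Alpl, the tissue-nonspecific alkaline phosphatase, measured 134, 146 and 106 CPM in wt/wt and 33.3, 35.8 and 47.7 CPM in fx/fx, with every fx/fx library under every wt/wt library and a log2 fold change of -1.72 (SE 0.21). Arhgef19, an exchange factor that activates small GTPases, measured 241, 292 and 227 CPM in wt/wt and 96.9, 84.98 and 65.7 CPM in fx/fx, a log2 fold change of -1.62 (SE 0.21). Both genes were low in fx2 as in the other fx/fx tumors. Klhdc7a, a kelch-domain protein, was among the 10 genes of the chromosome with the most counts over these libraries, with 849, 652 and 688 CPM in wt/wt and 201, 287 and 169.6 CPM in fx/fx and a log2 fold change of -1.73 (SE 0.26). Epha2, a receptor tyrosine kinase for ephrins, measured 642, 539 and 551 CPM in wt/wt and 83.1, 295 and 36.7 CPM in fx/fx. Its log2 fold change was -2.06 (SE 0.69), and here the fx/fx libraries differed widely, fx2 being the highest and fx3 the lowest.

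Outside the interval the lowest was Extl1 (chr4:134356372-134383850), an exostosin-like glycosyltransferase of heparan sulfate synthesis, with 43.8, 53.6 and 43.8 CPM in wt/wt and 10.4, 6.74 and 1.04 CPM in fx/fx. It had the lowest log2 fold change among the measured genes without overlap, -2.95 (SE 0.71), with fx3 far below the other fx/fx libraries. Galnt12, an enzyme that starts mucin-type O-glycosylation, measured 27.6, 85.6 and 45.3 CPM in wt/wt and 10.3, 25.4 and 13.9 CPM in fx/fx and AW011738 measured 64.8, 36.3 and 32.5 CPM in wt/wt and 7.67, 28.6 and 7.37 CPM in fx/fx. In both, fx2 was only a little below the lowest wt/wt library, and the log2 fold changes were -1.68 (SE 0.48) and -1.61 (SE 0.58).

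Candidate tumor suppressors on the chromosome, 48 in the list, were measured for 31. Of these 29 were lower in fx/fx on average, with fx1, fx2 and fx3 medians of -0.77, -0.12 and -0.82, close to those of the whole chromosome (-0.70, -0.12 and -0.82). Of the 31, 14 (45.2%) were lower without overlap, beside 39.0% on the chromosome and 9.75% of all measured genes, and none was higher without overlap. The 12 members inside the interval had medians of -0.88, -0.86 and -0.95 in fx1, fx2 and fx3, and the 19 outside had -0.63, -0.002 and -0.76. The medians were lower inside in every fx/fx library, most so in fx2. Since the interval was chosen for low fx2 values, the division in fx2 is no test.

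**Figure D4:**
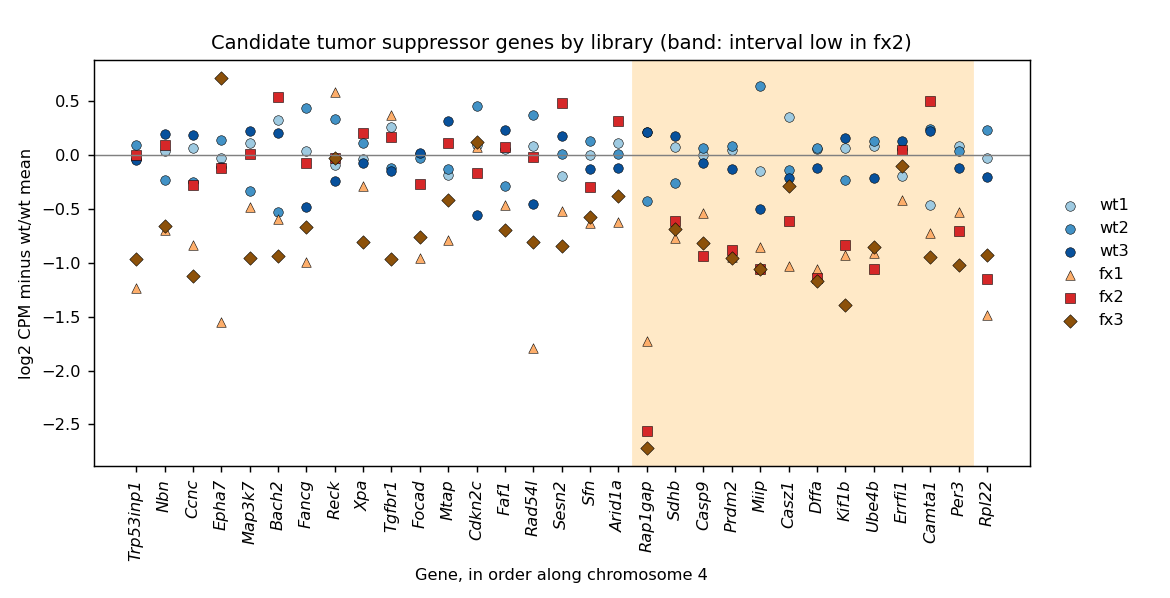
Log2 CPM minus the wt/wt mean (y axis) of the 31 measured candidate tumor suppressor genes in their order along chromosome 4 (x axis), by library (points). In the band, fx2 lies with fx1 and fx3 for 10 of 12 genes; Errfi1 (0.05) and Camta1 (0.50) are the others.

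Several death and chromatin genes lie inside the interval. Dffa, the inhibitor of the nuclease that cuts DNA in apoptosis, measured 38.4, 38.7 and 33.9 CPM in wt/wt and 17.7, 16.7 and 16.4 CPM in fx/fx; the 3 fx/fx values were close together and the log2 fold change was -1.13 (SE 0.17). Prdm2, a histone methyltransferase, measured 89.1, 91.6 and 78.8 CPM in wt/wt and 44.9, 46.97 and 44.5 CPM in fx/fx, again with fx/fx values close together and a log2 fold change of -0.93 (SE 0.15). Casp9, the initiator caspase of the mitochondrial death pathway, measured 38.2, 40.1 and 36.4 CPM in wt/wt and 26.3, 19.9 and 21.7 CPM in fx/fx, a log2 fold change of -0.76 (SE 0.18). In each of these 3 genes the genotypes were apart in all 6 libraries. Ube4b, a ubiquitin chain assembly factor, Kif1b, a kinesin motor, and Miip, a regulator of cell migration, were at -0.94 (SE 0.17), -1.04 (SE 0.21) and -1.07 (SE 0.34), all without overlap. Sdhb, the iron-sulfur subunit of succinate dehydrogenase, was at -0.70 (SE 0.18), Per3, a circadian clock gene, at -0.74 (SE 0.19), and Casz1, a zinc finger transcription factor, at -0.64 (SE 0.25), also without overlap. Rpl22, a ribosomal protein of the large subunit lying just past the distal edge, was at -1.18 (SE 0.22).

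Not all members of the interval were low. Errfi1, an inhibitor of the ErbB family of receptors, measured 190.2, 226 and 239 CPM in wt/wt and 163, 225 and 203 CPM in fx/fx, and the genotypes overlapped. Camta1, a transcription activator, measured 6.75, 11.03 and 10.9 CPM in wt/wt and 5.64, 13.2 and 4.82 CPM in fx/fx, with fx2 above every wt/wt library.

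Outside the interval only Ccnc (-0.71 (SE 0.26)), cyclin C, Focad (-0.63 (SE 0.22)), a focal adhesion protein, Sfn (-0.50 (SE 0.23)), a checkpoint protein of epithelia, and Rpl22 were lower without overlap. No list of DNA repair genes was drawn up, and of 4 members known for repair none was lower without overlap: Nbn stood at -0.70, 0.09 and -0.66 in fx1, fx2 and fx3, Rad54l at -1.79, -0.01 and -0.80, Fancg at -0.99, -0.07 and -0.67 and Xpa at -0.29, 0.21 and -0.81. Mtap, of the methionine salvage pathway, stood at -0.79, 0.11 and -0.42, Faf1 at -0.46, 0.08 and -0.70, Trp53inp1 at -1.24, -0.00 and -0.96 and the kinase gene Map3k7 at -0.48, 0.01 and -0.96. Arid1a, a subunit of the SWI/SNF chromatin remodeller, stood at -0.62, 0.31 and -0.38, Sesn2, a stress-induced inhibitor of growth signalling, at -0.52, 0.49 and -0.84 and Bach2, a transcription repressor, at -0.59, 0.54 and -0.93; in these 3, fx2 lay above the wt/wt mean.

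Some of the list kept to no shared direction. Epha7, an ephrin receptor, stood at -1.55, -0.12 and 0.71, and its log2 fold change turned from -0.05 to 0.34 without fx1 and to 0.02 without wt2. Tgfbr1, a TGF-beta receptor subunit, stood at 0.37, 0.16 and -0.96. Reck, an inhibitor of matrix metalloproteinases, stood at 0.59, -0.03 and -0.03 and was high in fx1 only, and Cdkn2c, a cyclin-dependent kinase inhibitor, at 0.08, -0.17 and 0.12. The last 2 are the members whose mean log2 CPM was higher in fx/fx. For Cdkn2c the difference was 0.01 and has no clear direction, since edgeR's log2 fold change was -0.04 (SE 0.27) and total count scaling or centring on the other chromosomes also turned it negative.

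The other 17 members of the list were below the limit for measured genes, among them the locus for which the chromosome is best known. Cdkn2a, which encodes inhibitors of cyclin-dependent kinases and of Mdm2, measured 3.17, 1.47 and 2.16 CPM in wt/wt and 2.78, 27.4 and 0.776 CPM in fx/fx, and Cdkn2b, its neighbour and a further kinase inhibitor, measured 1.196, 1.14 and 1.55 CPM in wt/wt and 4.402, 7.87 and 1.503 CPM in fx/fx. In both, fx2 was the highest of all 6 libraries, while fx3 was the lowest for Cdkn2a and within the wt/wt values for Cdkn2b. These 2 genes were named after their values were seen.

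Genes of growth signalling were measured for 25 of 32, and 24 were lower on average, with medians of -0.78, -0.01 and -0.81. Of the 25, 9 (36%) were lower without overlap, beside 39.0% on the chromosome and 9.75% over all measured genes. Cdc42, a small GTPase that CdGAP acts on, measured 429.97, 359.9 and 449 CPM in wt/wt and 276, 438 and 249.7 CPM in fx/fx; fx1 and fx3 were below all wt/wt libraries and fx2 was not. Nfib, a transcription factor, measured 814, 879 and 819 CPM in wt/wt and 484, 674 and 447 CPM in fx/fx and was lower without overlap, at -0.65 (SE 0.23). Ybx1, a cold-shock RNA-binding protein, measured 419.7, 418 and 404 CPM in wt/wt and 223, 406 and 266 CPM in fx/fx and Gnb1, a G protein beta subunit, measured 437, 416 and 498 CPM in wt/wt and 301, 473 and 289 CPM in fx/fx. Both were low in fx1 and fx3 only. The exception in the list was Pik3r3, a regulatory subunit of phosphoinositide kinases, named after its values were seen. It measured 5.96, 5.07 and 14.3 CPM in wt/wt and 33.6, 83.9 and 14.2 CPM in fx/fx, with fx2 highest, fx1 next, and fx3 just under wt3.

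Genes of mitosis and replication were measured for 18 of 20 and were lower on average in all 18. Without overlap 4 were lower (22.2%, beside 39.0% on the chromosome and 9.75% over all measured genes). Their medians were -1.27, -0.03 and -0.70, so fx1 lay farther down than the chromosome as a whole (-0.70). Cdc20, the activator of the anaphase-promoting complex, measured 80.3, 129 and 53.8 CPM in wt/wt and 22.2, 71.01 and 40.6 CPM in fx/fx, and fx2 lay within wt/wt. Smc2, a condensin subunit, measured 81.5, 85.3 and 59.4 CPM in wt/wt and 30.5, 81.2 and 51.9999 CPM in fx/fx, and Stmn1, a microtubule destabiliser, measured 85.5, 104 and 62.96 CPM in wt/wt and 29.97, 59.1 and 65.4 CPM in fx/fx. Rcc2, a chromosome condensation regulator and the one of these 4 inside the interval, measured 231, 195 and 302 CPM in wt/wt and 167, 130.4 and 163 CPM in fx/fx and was lower without overlap. Part of this spread was also present in wt/wt, where the medians were 0.05, 0.19 and -0.30.

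A further list holds core machinery that every cell uses, though how far its RNA depends on cell type was not tested. All 42 members were measured and 42 were lower on average, 21 of them without overlap (50%, beside 39.0% on the chromosome and 9.75% of all measured genes), with medians of -0.66, -0.20 and -0.75. Prdx1, a peroxide-reducing enzyme, measured 586, 688 and 623 CPM in wt/wt and 322, 398 and 341 CPM in fx/fx and was lower without overlap, at -0.84 (SE 0.19). Akr1a1, an aldehyde reductase, measured 551, 549 and 543 CPM in wt/wt and 345, 526 and 347 CPM in fx/fx, Tmem59, a Golgi membrane protein, 715, 612 and 829 CPM in wt/wt and 398, 621 and 393 CPM in fx/fx, and Eno1, an enolase of glycolysis, 698, 717 and 592 CPM in wt/wt and 387, 759 and 368 CPM in fx/fx. In these last 3 fx1 and fx3 were below every wt/wt library, and fx2 was near wt/wt or above it.

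The 5 cytosolic ribosomal protein genes of the chromosome were all lower on average. Their medians were -1.51, -0.19 and -1.003, and the 75 measured on other chromosomes were at -0.87, -0.16 and -0.04. In fx1 both medians were low, that of chromosome 4 more so, and in fx3 the median was low for chromosome 4 and near 0 elsewhere. Rps20 measured 532, 518 and 520.2 CPM in wt/wt and 184, 455 and 251 CPM in fx/fx, Rpl11 398, 484 and 404 CPM in wt/wt and 150.1, 375 and 209.5 CPM in fx/fx and Rpl22 447, 534 and 394 CPM in wt/wt and 162, 205 and 239.9 CPM in fx/fx.

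Epithelial genes of the chromosome, 15 measured of 21, were all lower on average, 8 without overlap (53.3%, beside 39.0% on the chromosome and 9.75% of all measured genes). Here fx2 was low too: the medians were -1.16, -0.97 and -1.21. Apart from Padi2, Alpl, Arhgef19, Extl1 and Epha2 above, the list holds Ptprf, a receptor phosphatase at cell contacts, with 1076, 1293 and 1032 CPM in wt/wt and 504, 1181 and 461 CPM in fx/fx. Fblim1, a filamin-binding adaptor with the most counts of any gene on the chromosome, measured 1161, 662 and 1488 CPM in wt/wt and 974, 479.7 and 906 CPM in fx/fx and overlapped. Cited4, a transcription coactivator, measured 305, 358 and 497 CPM in wt/wt and 141, 333 and 209.7 CPM in fx/fx, and Espn, an actin-bundling protein, 11.7, 69.9 and 10.96 CPM in wt/wt and 13.5, 39.3 and 7.44 CPM in fx/fx. Espn was far higher in wt2 than in the other wt/wt libraries, and its difference turned positive without wt2. Tinagl1, a matrix protein, was at -1.58 (SE 0.26). The list was drawn up with earlier results of these data known, so its direction is not independent evidence, and the epithelial markers off chromosome 4 did not go the same way (0.51, 0.21 and 0.57).

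Of the 49 genes higher in fx/fx on average 11 were in the list of matrix and fibroblast genes, as were 6 of the 10 higher without overlap. The list had 13 measured genes, so 11 of 13 were higher on average (49.2% of all measured genes were) and 46.2% were higher without overlap (8.56% of all measured genes, 1.55% on the chromosome). Its medians were 0.70, 0.76 and 0.19, and the other 2 genes were lower on average. Tinagl1, a matrix protein that was lower, is described with the epithelial genes above. The matrix list too was drawn up with earlier results of these data known, so its direction is not independent evidence. Tnc (chr4:63959785-64047015), tenascin C, measured 4.56, 8.12 and 6.37 CPM in wt/wt and 21.03, 25.6 and 16.8 CPM in fx/fx. Every fx/fx library was above every wt/wt library, and the log2 fold change was 1.74 (SE 0.30). Col27a1 (chr4:63214004-63334991), a fibrillar collagen, measured 20.7, 17.1 and 9.995 CPM in wt/wt and 31.2, 51.3 and 91.9 CPM in fx/fx, with fx3 highest and a log2 fold change of 1.87 (SE 0.44). Col15a1 (chr4:47208161-47313167), a collagen of basement membrane zones, measured 41.1, 42.9 and 38.2 CPM in wt/wt and 116, 95.3 and 64.3 CPM in fx/fx, a log2 fold change of 1.17 (SE 0.23). Col9a2, a chain of a fibril-associated collagen, measured 294, 312 and 377 CPM in wt/wt and 565, 525 and 536 CPM in fx/fx, with fx/fx values close together and a log2 fold change of 0.73 (SE 0.19).

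Hspg2, or perlecan, a heparan sulfate proteoglycan of basement membranes, measured 51.1, 61.6 and 28.1 CPM in wt/wt and 72.5, 85.4 and 64.5 CPM in fx/fx, at 0.66 (SE 0.29), and Plpp3, a lipid phosphate phosphatase, measured 80.9, 64.1 and 99.2 CPM in wt/wt and 127, 109 and 126 CPM in fx/fx, at 0.57 (SE 0.20). Plod1, a lysyl hydroxylase for collagen that lies inside the interval, measured 118, 158 and 131 CPM in wt/wt and 265, 178 and 154 CPM in fx/fx, and fx3 overlapped with wt/wt. Megf6, with epidermal growth factor-like repeats, measured 49.2, 74.7 and 48.97 CPM in wt/wt and 299.9, 154 and 63.2 CPM in fx/fx, with fx1 far above the rest. The fibroblast markers of other chromosomes moved the same way (1.37, 1.72 and 0.70 in fx1, fx2 and fx3), and their part in these values was not tested.

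**Figure D5:**
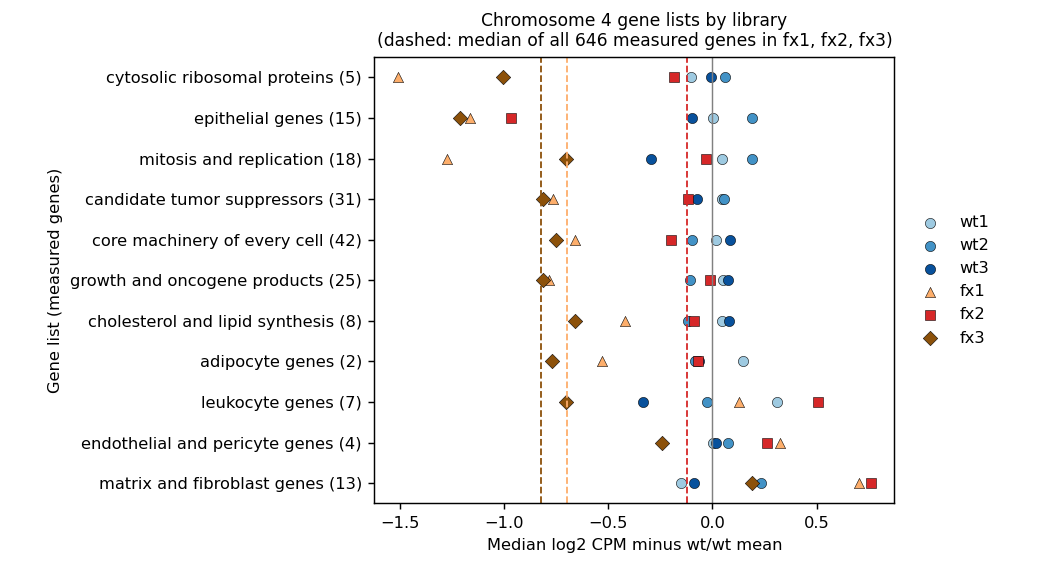
Median log2 CPM minus the wt/wt mean (x axis) of the measured members of each chromosome 4 gene list (y axis, number of genes in parentheses), by library (points), with dashed lines at the chromosome's medians in fx1, fx2 and fx3. Matrix and fibroblast genes lie above 0 in all fx/fx libraries, core machinery lies near the dashed lines, and epithelial genes are at -0.97 in fx2.

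The other 4 genes higher without overlap were Acot7 (0.97 (SE 0.43)), an acyl-CoA thioesterase high mainly in fx1, Serinc2 (0.67 (SE 0.19)), a serine incorporator family member, Zfp362 (0.41 (SE 0.19)), a zinc finger protein, and Srsf10 (0.19 (SE 0.15)), a splicing factor. Srsf10 measured 84.2, 82.3 and 83.98 CPM in wt/wt and 91.4, 90.9 and 104 CPM in fx/fx, a gap of a few CPM. H6pd, an enzyme of the endoplasmic reticulum that oxidises hexose phosphate, was high in fx1, with 35.3, 21.6 and 63.6 CPM in wt/wt and 237, 53.5 and 74.9 CPM in fx/fx, and overlapped.

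Genes of blood vessels and leukocytes varied by library. Of 4 measured endothelial and pericyte genes 2 were lower and 2 higher: Tie1, an endothelial receptor kinase, stood at 1.04, 0.70 and 0.03 in fx1, fx2 and fx3, Hspg2 at 0.70, 0.94 and 0.53, Clic4, a chloride channel family protein, at -1.202, -0.17 and -1.02 and Ece1, the endothelin-converting enzyme, at -0.06, -0.26 and -0.52. The 7 leukocyte genes had medians of 0.13, 0.50 and -0.70, none without overlap. The complement genes C1qa, C1qb and C1qc, made by macrophages, stood at 0.05, 0.44 and -0.83, 0.25, 0.56 and -0.70 and 0.13, 0.50 and -0.76, and Laptm5, a lysosomal protein of blood cells, at -0.00, 0.32 and -0.67. In all 4, fx2 was highest and fx3 lowest of the fx/fx libraries, the order also of the macrophage markers off the chromosome (0.31, 0.56 and -0.54). The edgeR log2 fold changes of C1qa, C1qb, C1qc and Laptm5 were -0.06, 0.10, 0.02 and -0.09. Each changed sign when some single libraries were left out.

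Taking out every member of the matrix, endothelial, leukocyte and adipocyte lists left 621 genes with medians of -0.72, -0.13 and -0.84. The 25 that were taken out had 0.33, 0.50 and -0.40. Of the 2 measured adipocyte genes, Plin2, a lipid droplet coat protein, stood at -0.47, -0.16 and -0.94 and Cpt2, of fatty acid import into mitochondria, at -0.60, 0.02 and -0.60, while the adipocyte markers of other chromosomes were all higher on average. Of 8 lipid synthesis genes 6 were lower: Scp2, a sterol carrier, stood at -0.74, -0.25 and -0.60 and Elovl1, a fatty acid elongase, at -0.41, -0.01 and -0.98.

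In groups split by level or GC content the medians stayed below 0 in every fx/fx library, but some counts differed by GC content. Split by the range over wt/wt instead, the most variable group had an fx2 median of 0.02, with fx1 and fx3 at -0.59 and -0.83. Split into 4 groups of equal size by mean level, the medians in fx1 ran from -0.76 to -0.60, in fx2 from -0.16 to -0.09 and in fx3 from -0.84 to -0.79. Split in the same way by GC content of the longest transcript they ran from -0.74 to -0.62 in fx1, from -0.22 to -0.05 in fx2 and from -0.85 to -0.79 in fx3. From lowest to highest GC content 9, 6, 8 and 26 genes were higher on average. Higher without overlap were 1, 1, 1 and 7 (8.56% of all measured genes). DESeq2 called 9, 9, 24 and 28 lower (1.4% of all measured genes). Why these counts differed was not tested. By the spread among wt/wt, 100 of the 162 least variable genes and 28 of the 162 most variable ones were lower without overlap (9.75% of all measured genes). A narrow wt/wt range makes this condition easier to meet, and the same split over all measured genes was not computed. Genes of other types are not among the members and were measured in the same libraries. The 53 non-coding genes and pseudogenes of chromosome 4 with a mean log2 CPM over 0 had medians of -0.73, -0.22 and -0.74, against -0.24, -0.17 and -0.03 for 1155 on other chromosomes. Among them the 21 processed pseudogenes stood at -0.27, -0.14 and 0.12 and the 10 antisense genes at -1.52, -0.66 and -1.78. Pseudogenes can share reads with their parent genes elsewhere, so their values are uncertain.

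Another 681 genes were not measured, and 216 of them had 0 counts in all 6 libraries. Some belong to families with little RNA in these tumors: none was measured of 18 interferon genes (13 at 0 counts throughout), 22 major urinary protein genes (14), 11 Skint genes of skin immunity (8) or 24 olfactory receptor genes (20). At the limit itself, Slc35d1, just inside with a mean log2 CPM of 3.01, stood at -0.56, -0.42 and -0.50 in fx1, fx2 and fx3, and Arhgef39, just outside with 2.97, at -1.74, -0.07 and -0.97.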

How the data were processed

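RNA was sequenced from 6 tumor libraries, 3 per genotype. The authors deposited raw counts (whole read pairs per gene). They counted, per the file headers, with featureCounts 1.6.0 against Ensembl release 93 of GRCm38, with both ends aligned, chimeric pairs left out and the reverse strand option. The submitters' processing notes name STAR 2.5.1b, featureCounts 1.4.6 and DESeq2 1.12.3. GENCODE M21 gave a symbol to 54165 of 54232 identifiers, and 0 rows named no gene.

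Counts were scaled by TMM. Fits across all genes used edgeR 4.0.16 (filterByExpr, quasi-likelihood, robust, 2-sided, Benjamini-Hochberg adjustment, threshold 0.05) in R 4.3.3, with limma 3.58.1 and DESeq2 1.42.0 as alternatives, and were tested on simulated data. Each fold change is edgeR's log2 ratio of the genotypes, wt/wt being the base, with its SE, and CPM values use TMM-scaled library sizes. Other alternatives were other scalings and filters, a GC and length correction, a replicate block and leaving out each library. The file headers set no multi-mapping option, so values of near-identical genes are uncertain.

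The members, gene lists, tests and rules were chosen with earlier results of these data known. Named were Arhgap31, every measured tumor suppressor candidate, the 10 lowest and 10 highest fold changes among genes without overlap, the 4 most abundant members of each other list, Padi2, Alpl, Arhgef19, Extl1, Tnc, Tln1, Cdc42, and genes at the ends and edges described. Genes named after their values were seen are said to be so. Some genes that this rule covers are not reported here.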

Additional observations from a re-analysis of the deposited data

How the results depend on the processing

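The count of 0 chromosome 4 genes past edgeR's threshold was also found with DESeq2 size factors, limma-voom, the replicate block (0 calls) and each library left out (0 to 0); it was 8 without the filter and 102 with the DESeq2 test. Deviations of same-numbered libraries correlated at -0.08, -0.09 and -0.01 over genes, and those of differently numbered libraries at between -0.25 and 0.30. Whether the replicate numbers pair the libraries cannot be told from these correlations. The 252 genes lower without overlap became 145 (of 382) at a mean log2 CPM over 5 and ranged from 252 to 499 with 1 library left out, the 499 being without fx2, so this count rests on fx2. The median of -0.57 ran from -0.76 (without fx2) to -0.42 (without fx3) and kept its sign in every scaling, filter and correction run. The lowest bin ran from -0.91 (without fx1) to -0.74 (without fx3). With DESeq2 factors all 646 genes kept their direction; with total counts or centring 643 did, Ak4, Cdkn2c and Zmym6 being the others. For the 108 named genes under single alternatives, 818 values kept their sign and stayed within 1 SD and 46 did not; 25 of these changed sign, in 14 genes, among them Espn (from -0.62 to 0.82 without wt2) and Slc25a33 (from 0.41 to -0.58 without fx3).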

Other observations

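Tln1, which encodes talin, the link between integrins and actin, lies on the proximal part of chromosome 4. It measured 238, 257 and 164 CPM in wt/wt and 193, 216 and 149 CPM in fx/fx, an edgeR log2 fold change of -0.24 (SE 0.23), and the genotypes overlapped.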
